A study of Homo sapiens with 4 samples.

Results

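NF-kB is a family of dimeric transcription factors that carry inflammatory and survival signals. The 10 genes described here, of 60676 in the deposited table, were chosen by name: the subunits RELA, NFKB1, NFKB2 and RELB, the feedback inhibitors NFKBIA and TNFAIP3, the adaptor TRAF1, the chemokines CCL2 and CXCL8, and the adhesion receptor ICAM1. Each was found as a single row under its symbol. They were compared by RNA-seq between 2 Synph-293 libraries and 2 HEK293 libraries, the question being how overexpression of synphilin-1 changes gene expression. Synph-293 is HEK293 made to overexpress synphilin-1, the product of SNCAIP, and the HEK293 control is labelled WT. HEK293 is a line from human embryonic kidney that carries adenoviral E1 sequence, which both groups share. Both groups are labelled as not treated. The labels do not say how synphilin-1 was introduced or whether Synph-293 is a clone or a pool. Nor do they tie the libraries to separate cultures, and p-values then measure a spread that may be technical.

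In resting cells NF-kB dimers are held in the cytoplasm by inhibitors of the IkB family, of which NFKBIA encodes IkB-alpha. Receptors for TNF, interleukin-1 and Toll-like ligands lead through adaptors and ubiquitin ligases to the IKK complex, which marks IkB for degradation, and RELA with the p50 product of NFKB1 then enters the nucleus. A slower arm runs through processing of NFKB2 and pairs it with RELB. NFKBIA, TNFAIP3, TRAF1, NFKB2, RELB, CCL2, CXCL8 and ICAM1 are themselves known targets of the pathway, and NFKBIA and TNFAIP3 feed back to end the signal.

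Sites for NF-kB near the gene start are part of what makes these genes targets, so the start regions are shown. RefSeq sequences of 250 bases before to 50 bases after a start (GRCh38.p14) were held for 14 starts of 8 of the 10 members, and none for RELB and CCL2. Capitals mark matches to the 9-base motif GGNNNTTCC or to the 10-base kappaB consensus GGGRNNYYCC, each searched on both strands. In these, N is any base, R is A or G, and Y is C or T. The motifs can overlap, but a stretch in capitals may match either alone. GGNNNTTCC was found at 9 of the 14 starts, in 7 of the 8 genes, against 20.1% of 35116 start regions in the RefSeq table. The kappaB consensus was found at 5 of the 14 starts, against 11.3% of all. Most members are known targets of NF-kB, so these shares are a description. First come 4 members, ICAM1 and CXCL8 with 1 site and NFKBIA and TNFAIP3 with 2.
ICAM1, chr19:10270870-10271169, plus strand: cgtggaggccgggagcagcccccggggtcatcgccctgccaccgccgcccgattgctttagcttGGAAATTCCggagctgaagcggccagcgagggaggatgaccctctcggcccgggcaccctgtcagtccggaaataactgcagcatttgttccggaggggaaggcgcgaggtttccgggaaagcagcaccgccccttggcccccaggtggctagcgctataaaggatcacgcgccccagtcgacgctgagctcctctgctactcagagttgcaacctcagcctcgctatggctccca
CXCL8, chr4:73740319-73740618, plus strand: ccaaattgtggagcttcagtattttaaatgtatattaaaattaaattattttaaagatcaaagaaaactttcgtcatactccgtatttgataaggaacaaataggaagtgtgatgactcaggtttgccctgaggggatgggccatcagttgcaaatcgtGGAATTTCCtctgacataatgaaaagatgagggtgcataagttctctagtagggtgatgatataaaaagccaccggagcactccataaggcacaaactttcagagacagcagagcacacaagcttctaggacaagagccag
NFKBIA, chr14:35404700-35404999, minus strand: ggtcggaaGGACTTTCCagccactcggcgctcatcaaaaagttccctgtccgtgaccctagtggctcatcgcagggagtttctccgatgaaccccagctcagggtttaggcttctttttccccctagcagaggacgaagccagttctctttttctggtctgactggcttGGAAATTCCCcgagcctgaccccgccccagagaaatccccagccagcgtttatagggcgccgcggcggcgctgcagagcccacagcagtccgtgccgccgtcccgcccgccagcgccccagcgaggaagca
TNFAIP3, chr6:137867009-137867308, plus strand: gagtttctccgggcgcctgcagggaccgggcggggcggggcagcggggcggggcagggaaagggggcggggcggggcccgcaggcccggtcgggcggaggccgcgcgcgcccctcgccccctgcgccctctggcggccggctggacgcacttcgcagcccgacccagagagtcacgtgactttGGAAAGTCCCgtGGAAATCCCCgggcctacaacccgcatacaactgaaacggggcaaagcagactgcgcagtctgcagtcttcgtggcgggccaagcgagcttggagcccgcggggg
In ICAM1 the match GGAAATTCC began at position -186 from the start, and in CXCL8 GGAATTTCC began at -91. NFKBIA had GGACTTTCC at -242 and GGAAATTCC at -81. TNFAIP3 had GGAAAGTCCC at -67 and GGAAATCCCC at -55, both on the minus strand. Of the 4 members shown, 3 held the TATA box letters TATAAA on either strand, as did 11.5% of all start regions: ICAM1 at -30 and CXCL8 at -31 on the plus strand, and NFKBIA at -33 on the other. RELA had no match to either kappaB motif at its 2 starts, which says only that these letters are not in these windows.

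SNCAIP, the gene for synphilin-1, had 22911 and 24834 counts in the Synph-293 libraries, against 17 and 16 in the HEK293 libraries, a log2 fold change of 10.36 ± 0.29 (SE). In edgeR's quasi-likelihood test the p adjusted by Benjamini-Hochberg was 1.18e-08. Library totals lay between 13284417 and 16998732 counts. Of 16421 genes tested, 16.6% were called at an adjusted p under 0.05, 10.0% higher and 6.58% lower in Synph-293. The share of mitochondrial counts differed as much within the groups as between them, at 7.28% and 10.9% in Synph-293 and 10.6% and 7.76% in HEK293. Of 14 embryonic kidney markers tested, 4 were higher, 0 lower and 10 not called (28.6% higher, against 10.0% of all genes tested). Those called included KRT8 and the kidney transcription factors PAX2 and SALL1. The log2 fold change was below 0 in 4 of the 14, down to -0.46. The keratin KRT8 was at 1445 ± 143 CPM in Synph-293 and 712 ± 76.1 CPM in HEK293. The epithelial markers CDH1 and EPCAM had between 9 and 16 counts in every library. PAX2 was at 5.11 ± 0.194 CPM in Synph-293 and 0.685 ± 0.121 CPM in HEK293, where replicate 2 was just below the low-count filter's limit of 0.604 CPM. PAX2 thus passed the filter only with the Synph-293 libraries, where it is high, so its call alone is no support for a difference. The part of these marker differences in the results that follow was not tested.

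Of the 10 members, all passed the filter on low counts, CCL2 was higher in Synph-293, ICAM1 was lower, and 8 did not pass the threshold. The share called was 2 of 10, against 16.6% of all genes tested, and the median log2 fold change was 0.21, against -0.013 over all genes. CPM of the groups did not overlap in 8 members, a pattern that 59.6% of all tested genes showed. The library labels allow an exact permutation p no lower than 0.333 for 2 against 2, so only the test fitted across all genes is used.

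**Figure D1:**
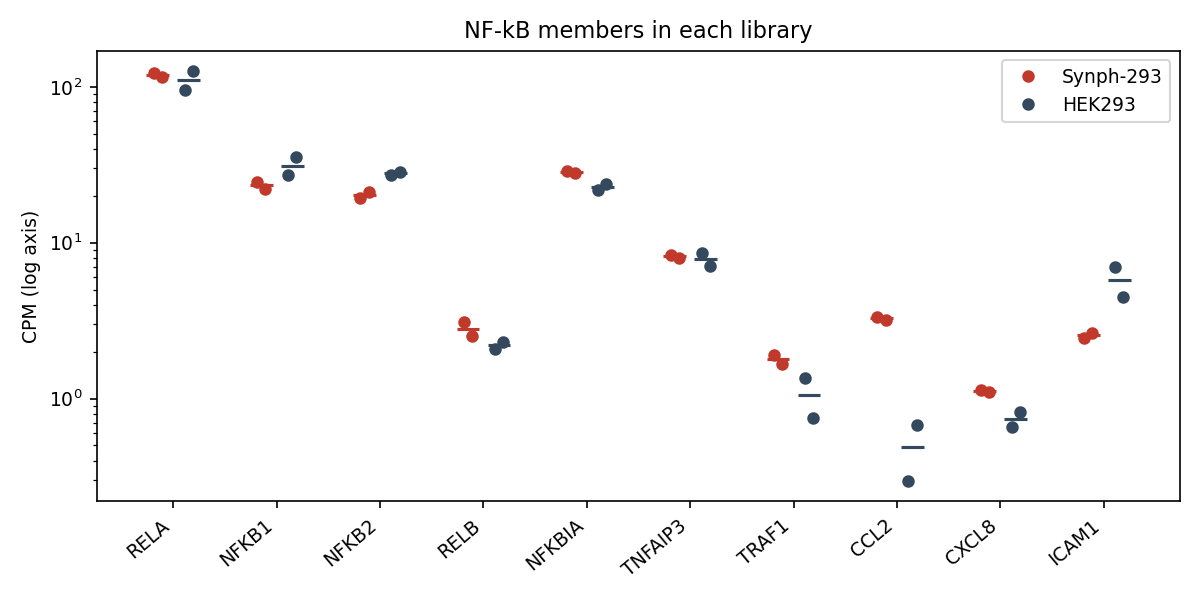
CPM, counts scaled to library size, on a log axis for the 10 members, with a point for each library and a line at each group's mean (n = 2 each). CCL2 lies at 3.34 and 3.19 CPM in Synph-293 and at 0.296 and 0.674 CPM in HEK293, while ICAM1 has means of 2.54 CPM in Synph-293 and 5.75 CPM in HEK293.

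The chemokine CCL2, which draws monocytes into inflamed tissue (ENSG00000108691, chromosome 17, 34255218 to 34257203, plus strand, GRCh38), showed the largest change of the members. It had 56 and 52 counts in the Synph-293 libraries, against 5 and 9 in the HEK293 libraries. Both Synph-293 libraries lay well above both HEK293 libraries, and 1 of the 2 HEK293 libraries was below the filter's limit of 0.604 CPM. CCL2 thus passed the filter only with the Synph-293 libraries, where it is high, so its call alone is no support for a difference. The means were 3.26 ± 0.104 CPM in Synph-293 and 0.485 ± 0.267 CPM in HEK293 (SD, n = 2 each). This was a 6.88-fold higher level (95% interval 3.67 to 12.9; log2 fold change 2.78 ± 0.41 SE, adjusted p = 0.00104). The size rests on few HEK293 counts, and the log2 fold change was 2.26 without HEK293 replicate 1 and 3.42 without replicate 2. In TPM, a unit scaled by gene length, CCL2 was at 9.05 and 7.93 in Synph-293, against 0.76 and 1.65 in HEK293. In bulk RNA, fewer cells with a transcript and less of it per cell cannot be told apart.

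CXCL8, the neutrophil chemokine also called interleukin-8 (ENSG00000169429, chromosome 4, 73740541 to 73743716, plus strand), was low in all libraries. It had 19 and 18 counts in Synph-293, against 11 and 11 in HEK293, or 1.12 ± 0.0196 CPM in Synph-293 and 0.738 ± 0.121 CPM in HEK293 (SD, n = 2 each). The log2 fold change of CXCL8 was 0.61 ± 0.40 and did not pass (adjusted p = 0.331), with an interval from 0.824-fold to 2.82-fold. The 6.88-fold change of CCL2 lies outside that interval, and the difference between the changes of the 2 chemokines was not tested.

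ICAM1 (ENSG00000090339, chromosome 19, 10271093 to 10286615, plus strand), the endothelial and epithelial ligand for leukocyte integrins, was lower. It had 41 and 43 counts in the Synph-293 libraries, against 118 and 60 in the HEK293 libraries. The 2 HEK293 libraries differed from each other, and both lay above both Synph-293 libraries. The means were 2.54 ± 0.138 CPM in Synph-293 and 5.75 ± 1.77 CPM in HEK293, a log2 fold change of -1.19 ± 0.29 (adjusted p = 0.0173; 1.83e-05 to 0.0884 over the alternatives). The call was lost without HEK293 replicate 1, where the log2 fold change was -0.83 (adjusted p = 0.0714), and in limma on log2 TPM (0.0690 and 0.0884). ICAM1 is overlapped on the opposite strand by AC011511.2, with 0 counts in every library, and AC011511.5, with 1 to 5.

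Among the subunits, RELA (ENSG00000173039, chromosome 11, 65653597 to 65663090, minus strand), the main activating subunit, was the most abundant member and did not pass the test. It had 2049 and 1892 counts in Synph-293, against 1603 and 1683 in HEK293, and the CPM ranges overlapped. The means were 119 ± 4.25 CPM in Synph-293 and 111 ± 21.9 CPM in HEK293, with a log2 fold change of 0.11 ± 0.17 (adjusted p = 0.715) and an interval from 0.827-fold to 1.41-fold. It was higher than 90.0% of tested genes in mean TPM. RELA-DT, on the other strand, overlaps it by 85 bases and had 29 and 26 counts in Synph-293, against 56 and 33 in HEK293.

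NFKB1 (ENSG00000109320, chromosome 4, 102501331 to 102617302, plus strand), which encodes p105 and its product p50, had 410 and 363 counts in Synph-293, against 457 and 473 in HEK293. NFKB2 (ENSG00000077150, chromosome 10, 102394110 to 102402524, plus strand), which encodes p100 and p52, had 323 and 346 counts in Synph-293, against 461 and 381 in HEK293. For both genes the 2 Synph-293 libraries were the lower ones in CPM, without overlap. NFKB1 averaged 23.4 ± 1.53 CPM in Synph-293 and 31.3 ± 5.89 CPM in HEK293 (log2 fold change -0.42 ± 0.18, adjusted p = 0.132). NFKB2 averaged 20.2 ± 1.40 CPM in Synph-293 and 27.9 ± 0.849 CPM in HEK293 (log2 fold change -0.46 ± 0.16, adjusted p = 0.0722). Neither passed over all genes, although their unadjusted p were 0.0374 and 0.0145. With a library left out, the log2 fold change lay between -0.61 (without HEK293 replicate 1) and -0.22 (without HEK293 replicate 2) for NFKB1. For NFKB2 it lay between -0.54 and -0.38. With the median of the 30 nearest tested genes removed, edgeR gave -0.22 (adjusted p = 0.522) for NFKB1 and -0.20 (adjusted p = 0.528) for NFKB2. The 30 nearest tested genes had median log2 fold changes of -0.20 around NFKB1 and -0.27 around NFKB2.

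RELB (ENSG00000104856, chromosome 19, 45001449 to 45038198, plus strand), the partner of p52, was low, with 52 and 41 counts in Synph-293, against 35 and 31 in HEK293. That was 3.10 and 2.52 CPM in Synph-293, against 2.08 and 2.32 CPM in HEK293, without overlap. Its log2 fold change of 0.36 ± 0.30 did not pass (adjusted p = 0.444), and in TPM the groups overlapped.

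Because TPM is scaled by length, the subunits can be set against each other. With REL, which encodes c-Rel, the 5 subunits summed to 124 and 125 TPM in Synph-293, against 112 and 137 TPM in HEK293, so the sums overlapped. RELA made up 73.6% and 74.5% of that sum in the Synph-293 libraries, against 66.2% and 65.2% in the HEK293 libraries. NFKB2 made up 12.1% and 13.1% in Synph-293, against 15.6% and 17.4% in HEK293, NFKB1 8.12% and 6.98% in Synph-293, against 10.1% and 10.6% in HEK293, and REL 3.69% and 3.92% in Synph-293, against 6.37% and 5.14% in HEK293. The share of RELA was thus higher in both Synph-293 libraries and the shares of these other subunits lower, as they must be in part when shares add to a whole. RELB stayed the least abundant subunit in all 4 libraries. REL itself had a log2 fold change of -0.50 ± 0.19 (adjusted p = 0.0997). These shares are of RNA and were not tested.

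The inhibitor genes did not pass either. NFKBIA (ENSG00000100906, chromosome 14, 35401511 to 35404749, minus strand) had 482 and 458 counts in Synph-293, against 369 and 316 in HEK293, and its CPM did not overlap. The means were 28.4 ± 0.439 CPM in Synph-293 and 22.8 ± 1.26 CPM in HEK293, with a log2 fold change of 0.32 ± 0.16 (adjusted p = 0.189). The interval ran from 0.982-fold to 1.59-fold. The ratio of NFKBIA to RELA in TPM was 0.364 ± 0.00598 in Synph-293 and 0.327 ± 0.0322 in HEK293 (SD, n = 2 each), a difference about as large as the spread of the HEK293 libraries.

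TNFAIP3 (ENSG00000118503, chromosome 6, 137867214 to 137883312, plus strand), which encodes the ubiquitin-editing enzyme A20, had 140 and 130 counts in Synph-293, against 145 and 95 in HEK293. In CPM the groups overlapped, at 8.16 ± 0.259 in Synph-293 and 7.86 ± 1.05 in HEK293, and the log2 fold change was 0.05 ± 0.21 (adjusted p = 0.896). In TPM they did not overlap, at 3.53 and 3.21 in Synph-293, against 5.44 and 4.51 in HEK293. The measures part because the length by which the authors' values were divided differed between the groups. That implied length, the count over the product of RPKM and the library total, was 3498 and 3428 bases in Synph-293, against 2221 and 2270 bases in HEK293, a ratio of 1.54. It was checked in genes with a single listed transcript, at least 100 counts and an RPKM of at least 1 in every library. Over these 564 genes it varied little, with a median ratio of highest to lowest library of 1.00. A single transcript has a fixed length, so this checks the calculation and not the spread for a gene with 11 transcripts. A separation of at least 1.5-fold without overlap was found for 1.24% of 15927 genes, and for TNFAIP3 alone among the 10 members. The 11 TNFAIP3 transcripts of the deposited table range from 421 to 4735 bases in GENCODE 29. The antisense gene WAKMAR2 overlaps TNFAIP3 by 1020 bases and had 1 to 5 counts a library. The difference in implied length was chosen after its values were seen and has no test, and on log2 TPM the gene did not pass in limma (adjusted p = 0.206 and 0.228).

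**Figure D2:**
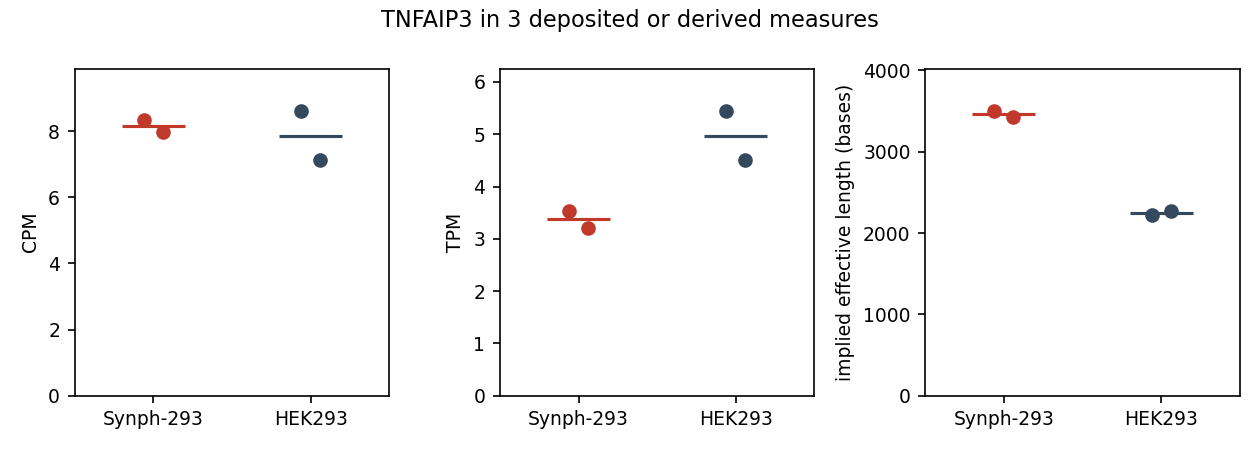
TNFAIP3 in each library (points) with group means (lines, n = 2 each), as CPM, as the deposited TPM, and as the effective length in bases implied by the deposited values, on axes that start at 0. The CPM of the groups overlap, while TPM is 3.53 and 3.21 in Synph-293 and 5.44 and 4.51 in HEK293, and the implied length is 3498 and 3428 bases in Synph-293 and 2221 and 2270 bases in HEK293.

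TRAF1 (ENSG00000056558, chromosome 9, 120902393 to 120929173, minus strand), an adaptor of TNF receptors, had the lowest mean TPM of the members in both groups, with 32 and 27 counts in Synph-293, against 23 and 10 in HEK293. Its CPM did not overlap, at 1.78 ± 0.177 in Synph-293 and 1.06 ± 0.435 in HEK293, and its log2 fold change of 0.72 ± 0.39 did not pass (adjusted p = 0.228). In mean TPM the order in Synph-293 was RELA, NFKBIA, NFKB2, NFKB1, CCL2, TNFAIP3, RELB, ICAM1, CXCL8 and TRAF1. In HEK293 it was RELA, NFKBIA, NFKB2, NFKB1, TNFAIP3, ICAM1, RELB, CCL2, CXCL8 and TRAF1. CCL2 thus stood above TNFAIP3 in Synph-293, at 8.49 TPM, and below RELB in HEK293, at 1.21 TPM. Of the neighbours in each order, NFKB1 and CCL2 overlapped between the Synph-293 libraries, and ICAM1 and RELB, and CCL2 and CXCL8, between the HEK293 libraries.

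**Figure D3:**
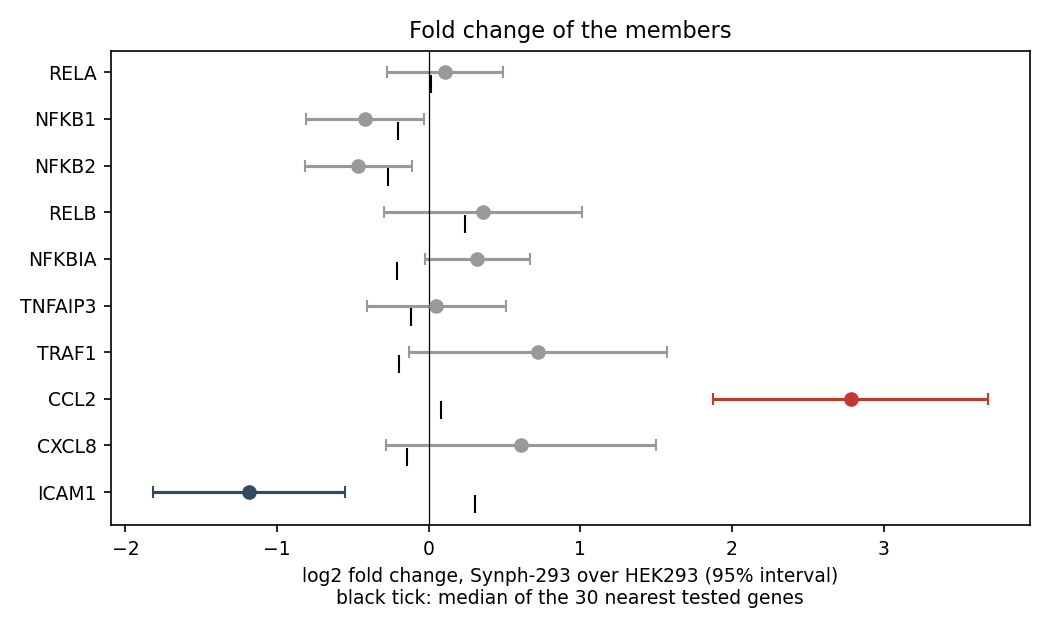
Log2 fold change of each member, Synph-293 over HEK293, with its 95% interval from the fit of all genes, and a black tick at the median of the 30 nearest tested genes. CCL2 at 2.78 and ICAM1 at -1.19 are past the threshold, and the other 8 members lie between -0.46 and 0.72.

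The rest of the pathway was described by lists chosen for their role. The genes named are the members of a list with the largest called changes, at most 3 a list. REL, CHUK, IKBKB, IKBKG, BIRC2, LTBR, the other targets beyond CCL20, CXCL1 and SERPINB2, the genes too low to test, and markers that were not called were named after their values were seen. Of 10 other family members and regulators, 0 were higher and 2 lower (20% lower, against 6.58% of all genes tested). The ubiquitin ligase PDLIM2, known to promote the breakdown of RELA, was at 9.78 ± 2.02 CPM in Synph-293 and 16.0 ± 0.423 CPM in HEK293 (log2 fold change -0.70 ± 0.20, adjusted p = 0.0331). It lost its call in 6 of the 14 alternatives, among them DESeq2 (adjusted p = 0.0504) and the fit without Synph-293 replicate 2 (-0.51, adjusted p = 0.346). NFRKB, a chromatin remodelling subunit named for binding a kappaB site, had a log2 fold change of -0.55 ± 0.15 (adjusted p = 0.0299). This was -0.056 once the median of its 30 neighbours was removed. NFRKB lost its call in 6 of the 14 alternatives, among them limma on log2 TPM (adjusted p = 0.103 and 0.104). The call was also lost in edgeR with the replicate block (0.147) and without Synph-293 replicate 1 (log2 fold change -0.54) or 2 (-0.55).

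Of 17 kinases and their partners tested, 1 was higher and 1 lower (5.88% each, against 10.0% and 6.58% of all genes tested), with a median log2 fold change of -0.10. The core IKK genes did not pass: CHUK had -0.071 ± 0.15, IKBKB 0.021 ± 0.16 and IKBKG 0.15 ± 0.19 as log2 fold changes. RIPK2, the kinase downstream of the NOD receptors, was at 11.5 ± 0.917 CPM in Synph-293 and 22.9 ± 2.65 CPM in HEK293 (log2 fold change -0.99 ± 0.18, adjusted p = 0.00353), and lost its call with the neighbours' median removed (-0.56, adjusted p = 0.0754). TAB3, a binding partner of the kinase TAK1, had 0.68 ± 0.16 (adjusted p = 0.0129) and lost its call in 5 of the 14 alternatives. These were limma on log2 TPM (adjusted p = 0.111 and 0.113), the neighbours' median removed (0.214), and the fits without Synph-293 replicate 1 or 2. In those last fits the log2 fold change was 0.75 and 0.62.

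Larger changes stood among the adaptors and ubiquitin enzymes, where 1 of 27 tested was higher and 6 lower (3.70% and 22.2%, against 10.0% and 6.58% of all genes tested). MYD88, the adaptor of interleukin-1 and most Toll-like receptors, had 203 and 214 counts in the Synph-293 libraries, against 15 and 7 in the HEK293 libraries. That was 12.6 ± 0.731 CPM in Synph-293 and 0.707 ± 0.258 CPM in HEK293, a 17.2-fold higher level (log2 fold change 4.11 ± 0.30, adjusted p = 6.37e-06). HEK293 replicate 2, at 0.524 CPM, was below the filter's limit of 0.604 CPM. MYD88 thus passed the filter only with the Synph-293 libraries, where it is high, so its call alone is no support for a difference. BIRC3, which encodes the ubiquitin ligase cIAP2 and is itself an NF-kB target, had 50 and 63 counts in Synph-293, against 184 and 115 in HEK293 (log2 fold change -1.52 ± 0.24, adjusted p = 0.00173). MYD88 and BIRC3 kept their call in the 14 alternatives. The neighbouring gene BIRC2, which encodes cIAP1, had -0.54 ± 0.16 (adjusted p = 0.0367) and was called in 7 of the 14, but not without HEK293 replicate 1 (adjusted p = 0.0643) or Synph-293 replicate 1 (0.345) or 2 (0.224).

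Of 21 receptors tested, 4 were higher and 3 lower (19.0% and 14.3%, against 10.0% and 6.58% of all genes tested). The receptor CD40, which signals to both arms, had 14 and 17 counts in Synph-293, against 68 and 43 in HEK293 (log2 fold change -1.95 ± 0.33, adjusted p = 0.00244). TNFRSF9, also called 4-1BB, had 85 and 94 counts in Synph-293, against 41 and 26 in HEK293 (1.29 ± 0.27, adjusted p = 0.00792). It lost its call in limma on log2(TPM + 0.1) (adjusted p = 0.0547). The neurotrophin receptor NGFR was at 24.4 ± 3.41 CPM in Synph-293 and 11.5 ± 2.45 CPM in HEK293 (1.07 ± 0.20, adjusted p = 0.00423). LTBR, the lymphotoxin beta receptor of the slower arm, had -0.78 ± 0.18 (adjusted p = 0.0140). It lost its call with Synph-293 replicate 1 left out (log2 fold change -0.64) and in limma on log2 TPM (adjusted p = 0.0635 and 0.0671). The Toll-like receptors TLR2, TLR4 and TLR9 had 0 to 5 counts in any library. Of 16 activating ligands, 14 were too low to test and 3 of these had no count at all. TNF had 9 and 18 counts in Synph-293, against 6 and 2 in HEK293, and IL1B had 1 and 0 in Synph-293, against 2 and 0 in HEK293.

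Of 33 further inflammatory targets tested, 7 were called higher and 1 lower (21.2% and 3.03%, against 10.0% and 6.58% of all genes tested), with a median log2 fold change of 0.16. Of the 7, CXCL1, CCL20, PTGS2 and SERPINB2 passed the filter through the Synph-293 libraries alone, where they are high, so their calls are no support for a difference and their counts are given as a description. The other 3, a share close to that of all genes, were IER3, the cytokine gene IL11 and the stress gene GADD45B, and the gene that was lower was PLAU, the urokinase plasminogen activator. CCL20, the chemokine ligand of CCR6, had 24 and 31 counts in Synph-293, against 2 and 1 in HEK293, a ratio of 16.8 (exact binomial interval 5.44 to 83.7, counting error only). CXCL1, a neutrophil chemokine, had 20 and 15 counts in Synph-293, against 2 and 1 in HEK293, a ratio of 10.7 (interval 3.36 to 54.2). CXCL1 has close copies in CXCL2 and CXCL3, among which reads may be split, and those were too low to test. The inhibitor of plasminogen activation SERPINB2 had 21 and 12 counts in Synph-293, against 0 and 1 in HEK293, a ratio of 30.2 (interval 5.05 to 1227). The fitted log2 fold change of SERPINB2 lay between 3.59 and 7.06 in the 3 fits with a library left out that still held the gene, and without Synph-293 replicate 1 it did not pass the filter.

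PTGS2, the inducible cyclooxygenase, had 28 and 23 counts in Synph-293, against 6 and 1 in HEK293, a ratio of 6.66 (interval 3.01 to 17.4). Its fitted log2 fold change lay between 2.09 and 4.22 with a library left out. IER3, an immediate early survival gene, was at 24.1 ± 5.24 CPM in Synph-293 and 10.7 ± 0.817 CPM in HEK293 (1.17 ± 0.20, adjusted p = 0.00244). The inducible genes IL6, VCAM1 and SELE were too low to test, with 0 and 0, 4 and 0, and 3 and 7 counts in Synph-293, against 4 and 1, 1 and 0, and 1 and 1 in HEK293. The antioxidant enzyme gene SOD2, with 1599 and 1314 counts in Synph-293, against 1352 and 1423 in HEK293, did not pass (log2 fold change -0.085 ± 0.18, adjusted p = 0.789).

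**Figure D4:**
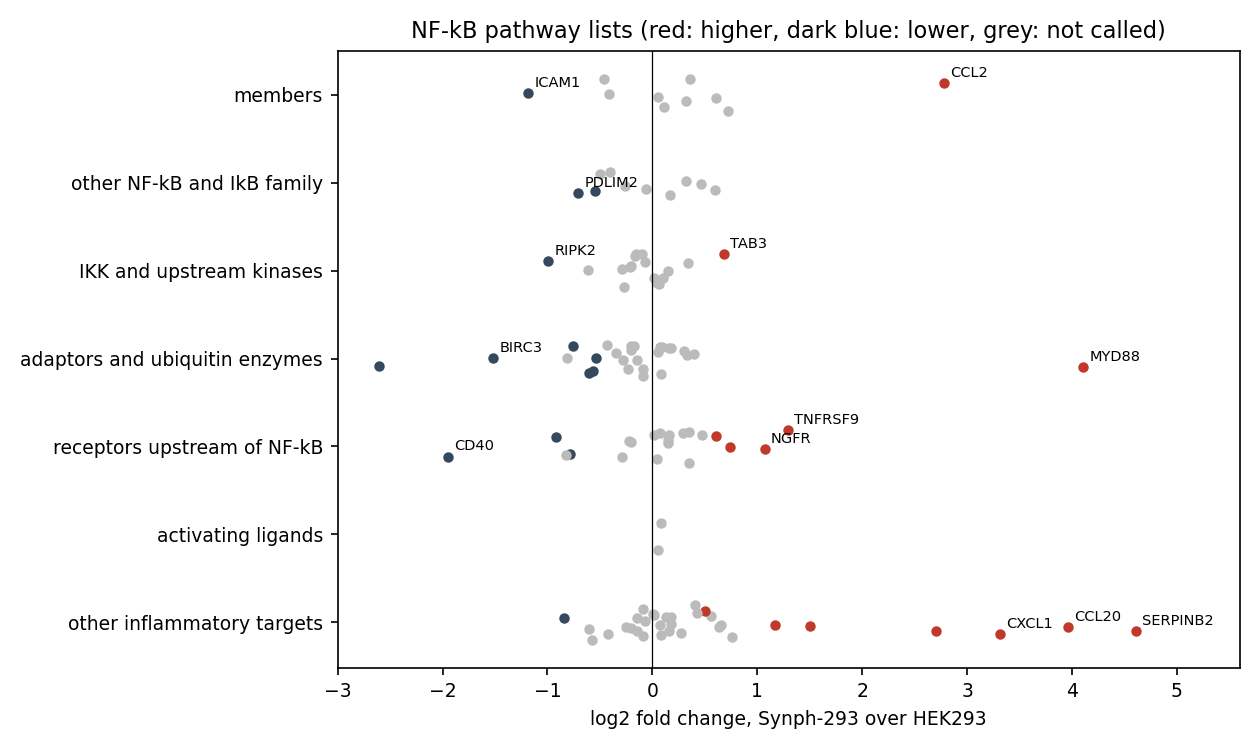
Log2 fold change, Synph-293 over HEK293, of every tested gene in the members and the 6 other NF-kB lists, spread at random within each row to separate points. MYD88 at 4.11 lies farthest to the right among the adaptors, and CCL20, CXCL1 and SERPINB2 among the targets. Labels mark only genes that the text describes, and CXCL1, CCL20, PTGS2 and SERPINB2 passed the filter through the Synph-293 libraries alone. MYD88 and CCL2 each reached the filter's limit in only 1 HEK293 library.

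Start regions were also searched for 8 of the list genes named by their called change, which need not be all that were held. Of the 8 genes, 5 had a kappaB motif: BIRC3 and NFRKB, which were lower, and TNFRSF9, CXCL1 and CCL20, which were higher. Among all start regions 20.1% held GGNNNTTCC and 11.3% the kappaB consensus, counted by start and not by gene. The 5 of 8 is thus a description, and a relation of the motif to the direction of change was not tested. The regions of BIRC3, CXCL1 and CCL20 are shown as those of a survival gene and of chemokines described as NF-kB targets.
BIRC3, chr11:102317234-102317533, plus strand: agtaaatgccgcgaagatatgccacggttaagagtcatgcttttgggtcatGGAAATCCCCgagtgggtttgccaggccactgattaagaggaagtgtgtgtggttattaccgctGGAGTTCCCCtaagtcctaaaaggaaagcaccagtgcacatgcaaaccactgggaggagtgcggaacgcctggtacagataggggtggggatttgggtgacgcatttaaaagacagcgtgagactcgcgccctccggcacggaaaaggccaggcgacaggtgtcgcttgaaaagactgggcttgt
CXCL1, chr4:73869143-73869442, plus strand: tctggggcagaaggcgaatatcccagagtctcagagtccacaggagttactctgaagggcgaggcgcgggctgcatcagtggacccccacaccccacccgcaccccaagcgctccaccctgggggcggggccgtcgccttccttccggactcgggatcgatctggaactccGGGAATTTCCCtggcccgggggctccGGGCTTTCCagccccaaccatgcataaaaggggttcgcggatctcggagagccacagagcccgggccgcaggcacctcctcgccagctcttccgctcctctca
CCL20, chr2:227813592-227813891, plus strand: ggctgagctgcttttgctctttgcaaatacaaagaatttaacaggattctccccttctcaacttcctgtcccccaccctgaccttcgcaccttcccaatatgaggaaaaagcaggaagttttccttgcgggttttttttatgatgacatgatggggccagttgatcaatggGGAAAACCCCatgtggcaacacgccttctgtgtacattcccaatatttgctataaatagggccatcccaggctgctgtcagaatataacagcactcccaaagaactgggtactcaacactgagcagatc
BIRC3 had GGAAATCCCC at -199 and GGAGTTCCCC at -135, the latter a match to the kappaB consensus only. CXCL1 had GGGAATTTCC at -79 and GGGCTTTCC at -53, and CCL20 had GGAAAACCCC at -79. NFRKB had a match to the 9-base motif at -205 from 1 of its 2 starts, and TNFRSF9 had matches at -74 and -73. MYD88, TAB3 and SERPINB2 had no match to either kappaB motif at their listed starts.

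Several of these genes are also expressed by leukocytes, endothelium and fibroblasts, and markers of these cell types were measured as well. The counts called below stand against 10.0% higher and 6.58% lower among all genes tested. Of 16 leukocyte markers 6 could be tested and 1, the macrophage marker CD68, was higher, though not without Synph-293 replicate 2 (adjusted p = 0.228), with a summed level of 17.0 to 19.6 CPM in Synph-293 and 13.3 to 13.5 CPM in HEK293. Of the 6 tested, 3 passed the filter through the Synph-293 libraries alone, and CD68 was not among these. The defining marker PTPRC had 0 and 3 counts in Synph-293, against 0 and 3 in HEK293. Of 10 endothelial markers 4 could be tested and 1, the transcription factor ERG, was called higher after passing the filter through the Synph-293 libraries alone (23 and 24 counts in Synph-293, against 2 and 1 in HEK293), with sums of 9.33 to 10.3 CPM in Synph-293 and 6.76 to 6.89 CPM in HEK293. CDH5 had 3 and 1 counts in Synph-293, against 1 and 1 in HEK293. Of 10 fibroblast markers 5 could be tested and 2 collagens, COL3A1 and COL1A1, were higher, with sums of 102 CPM in both Synph-293 libraries and 46.1 to 49.2 CPM in HEK293. DCN had 2 and 3 counts in Synph-293, against 0 and 0 in HEK293. COL3A1 was at 37.6 ± 0.177 CPM in Synph-293 and 6.88 ± 2.43 CPM in HEK293, while COL1A1 lost its call without Synph-293 replicate 1 (adjusted p = 0.154) or 2 (0.0687). The part of these cell types in the results was not tested.

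The calls of the members depended on the settings in different degrees. Those of CCL2 carry the limit that it passed the main filter only with the Synph-293 libraries, where it is high. CCL2 was called in all 14 alternatives, with log2 fold changes from 2.13 to 3.42. ICAM1 was called in 11 of 14, from -1.49 to -0.69.

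**Figure D5:**
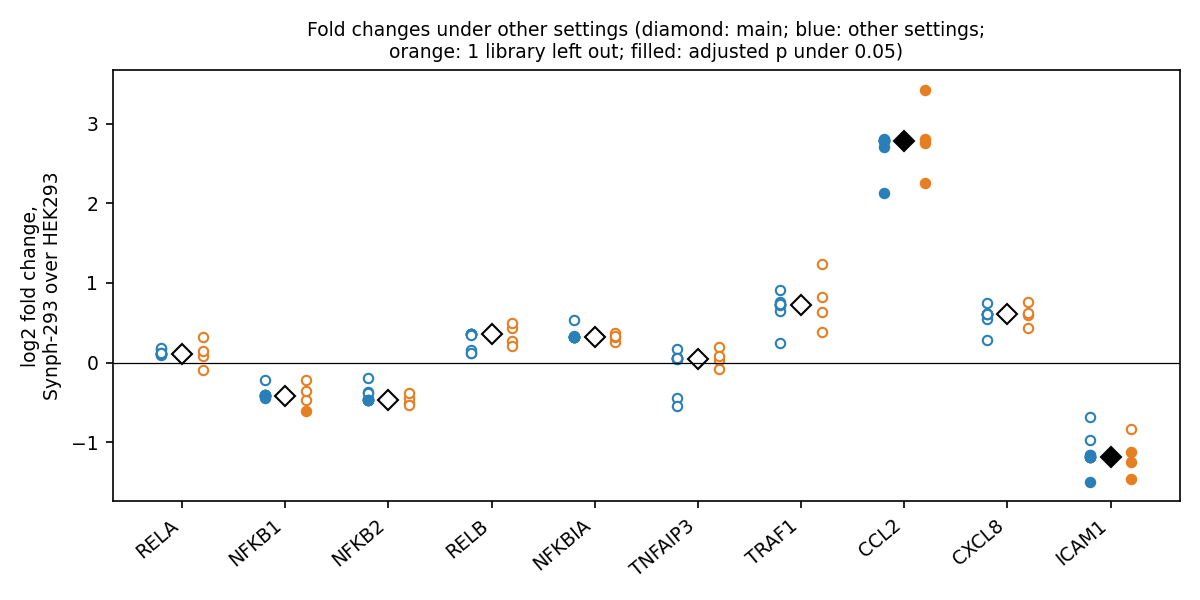
Log2 fold change of each member, Synph-293 over HEK293, as tested (diamond), with other settings (blue) and with 1 library left out (orange). Filled symbols have an adjusted p under 0.05, and CCL2 stays between 2.13 and 3.42 while RELA and TNFAIP3 lie on both sides of 0.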

How the data were processed

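Poly(A) RNA, as labelled, of 2 Synph-293 and 2 HEK293 samples was sequenced as stranded paired-end libraries, per the labels' protocols. The deposited table gives each gene an estimated count, which the authors deposited as a whole number, and an RPKM and a TPM that the authors scaled for length and library size. The counts were taken as estimated because 43 to 63 genes per library paired a zero count with a positive TPM. Per the submitters' processing notes the build was GRCh38.p13 and the tools named were STAR 2.7.1a, cutadapt 2.8, Cufflinks 2.2.1, featureCounts 2.0.0, HTSeq 0.11.2 and RSEM 1.3.1. Their roles and the strand setting of the counting are not given in the sources used here, so reads of overlapping antisense genes may be shared, which concerns RELA, TNFAIP3 and ICAM1. Counts were tested in R 4.3.3 with edgeR 4.0.16 (quasi-likelihood, TMM, filterByExpr with a minimum count of 10 and total of 15, group as the only term), with Benjamini-Hochberg adjustment over all 16421 genes. CPM use TMM-scaled totals, and the SE is the log2 fold change over the root of F. DESeq2 1.42.0 and limma 3.58.1 on log2(TPM + 1) and log2(TPM + 0.1) were alternatives. On simulated data with these means and totals, 70 of 96 genes changed by 2-fold and 97 of 98 changed by 4-fold were called, with 1 of 15924 unchanged genes called, over 16118 genes. The simulation gave every gene the same biological coefficient of variation, 13%, and independent libraries, so these rates need not hold for the real genes. Replicates differed by more than sampling noise (chi-square per degree of freedom 18.8 in Synph-293 and 25.9 in HEK293). Intervals on ratios of counts are exact and cover counting error only. The members and lists were chosen with earlier results of these data known. Named genes were SNCAIP, the members, and from each list up to 3 called genes with the largest change, of which 1 is not reported here. IRAK4, listed among the kinases, was not analysed here, and of 2 rows named SOD2 the HGNC-sourced row was used.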

Additional observations from a re-analysis of the deposited data

How the results depend on the processing

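With group as the only term 1648 genes were higher and 1081 lower. The higher count was 1086 in limma on log2(TPM + 0.1) and 1049 to 2183 with a library left out. The lower count was 521 in limma on log2(TPM + 1), 474 on log2(TPM + 0.1), 540 with the median of 30 neighbouring genes removed, 719 with the replicate block, and 457 to 2042 with a library left out. Of the members, 1 was higher with any library left out and 1 to 2 were lower, the 2 being NFKB1 and NFKB2 without HEK293 replicate 1. In limma on TPM 0 members were lower by either pseudocount. Same-numbered libraries deviated in opposite directions (correlation -0.277 across genes). A crossed pairing, chosen after seeing the data, gave 3251 higher and 3016 lower genes and 2 higher and 3 lower members, while the replicate block as labelled left both member counts as they were. With a library left out, the log2 fold change lay between -0.088 (without HEK293 replicate 1) and 0.32 for RELA, and between -0.081 (without HEK293 replicate 2) and 0.19 for TNFAIP3. For TNFAIP3 it was -0.45 and -0.54 in limma on log2(TPM + 1) and log2(TPM + 0.1), where the implied length enters the value. The cause of the other changes was not tested. Over the alternatives the lists had 0 to 4 lower family members, 2 to 10 lower adaptors, 1 to 6 higher receptors and 5 to 13 higher targets. On log2(TPM + 1) low genes have smaller changes by construction, as CCL2 with 2.13, MYD88 with 2.39 and PTGS2 with 0.60. SERPINB2 could not be fitted without Synph-293 replicate 1, nor SERPINB2 and CXCL1 with a filter of 1 CPM. CCL2, CXCL8, MYD88, CCL20, CXCL1, PTGS2 and SERPINB2 had under 20 counts in each HEK293 library, which limits the precision of their levels there.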
